A study of Homo sapiens with 18 samples.

Results

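U2932 lymphoma cells held for 24 h in 1 µM of the kinase inhibitor SGC-GAK-1 were compared with U2932 cells given its solvent, DMSO, with 3 libraries in each group. These 6 libraries were taken from a series of 18 by their titles. The other 12 are U2932 cells at 12 h of SGC-GAK-1 and the same 3 groups of a second line, Ly1. U2932 is an established human cell line from a diffuse large B cell lymphoma, which arises from mature B lymphocytes, and the submitters class it as activated B cell-like (ABC), while Ly1 is a line of the same disease. SGC-GAK-1 was at 1 µM in all treated libraries, no dose series was made, and no time is given for the DMSO libraries. U2932 was grown in RPMI medium, and 1 line stands for its whole class here. The labels number the replicates of each group 1 to 3 without saying that they were separate cultures, so the p-values reflect the spread among these samples alone, which may be technical.

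The compound SGC-GAK-1 was developed as a selective chemical probe against GAK, the cyclin G-associated kinase. GAK recruits the chaperone HSC70 to clathrin-coated vesicles so that the coat can be removed, and it is also known from work on the mitotic spindle and the centrosome. An ABC lymphoma cell keeps features of a B cell on its way to a plasma cell, with active NF-kappaB signalling. Messenger RNA levels do not report kinase activity, so the comparison asks which transcripts differed after a day with the inhibitor.

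U2932 libraries held 23236970 to 26316407 counts, and 15138 of 60656 genes passed the filter on low counts and were tested. Levels are given as CPM, a count divided by the scaled library total. A count of 0 allows up to 3 counts, which equal 0.115 to 0.128 CPM here and cover counting error alone. B cell markers were well above that limit, with MS4A1 (CD20) at 897 to 999 CPM at 24 h and at 841 to 1175 CPM in DMSO. CD2, CD3D, NKG7, LYZ, MPO, CD68, COL3A1, VWF, KRT8 and KRT18, markers of other cell types, were too low to be tested. The number 3 libraries stood apart from numbers 1 and 2 in every group of the line. MYC, the growth-promoting transcription factor, had 332, 332 and 44.7 CPM in 24 h replicates 1, 2 and 3 and 331, 351 and 50.6 CPM in DMSO replicates 1, 2 and 3. CCND2, which encodes cyclin D2, had 49.5, 51.7 and 5.11 CPM at 24 h and 47.5, 56.8 and 6.91 CPM in DMSO. For this reason the replicate number entered the fit as a block, and most gene lists are also given without the number 3 libraries.

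The targeted kinase did not pass the test at the level of its own messenger RNA. GAK (ENSG00000178950.17, chromosome 4, 849276 to 932373, hg38) had 66.1, 67.6 and 73.1 CPM at 24 h and 63.3, 64.4 and 64.0 CPM in DMSO. Its change was 0.11 ± 0.07 on the log2 scale (SE, edgeR quasi-likelihood test, adjusted p = 0.419), although the groups did not overlap. An inhibitor need not alter the transcript of its target, so this value does not check the labels. AAK1 and BMP2K, endocytic kinases of the same family, had log2 fold changes of 0.10 ± 0.10 and 0.11 ± 0.06 (adjusted p = 0.607 and 0.358), and DNAJC6 (auxilin), which shares the uncoating role, had -0.07 ± 0.08 (0.627). RIPK2, a kinase of innate immune signalling, CCNG1 (cyclin G1) and COQ8A, a kinase-like protein of coenzyme Q synthesis, also missed the threshold, with log2 fold changes of -0.04, 0.07 and -0.15. Of 39 tested genes of the clathrin coat and endocytosis, edgeR called 0, with 6 higher and 2 lower at an unadjusted p under 0.05. DESeq2 and limma voom also called 0 of them, and their median log2 fold change was 0.04.

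Across all genes, 667 of 15138 passed the test at 24 h, which is 4.41% (edgeR, adjusted p under 0.05). They split into 338 higher (2.23%) and 329 lower (2.17%), and the changes were small. In these bulk libraries fewer cells of a kind and less RNA per cell cannot be told apart. The median log2 fold change was 0.45 among the higher genes and -0.42 among the lower ones, and 39 of the 667 changed at least 2-fold. Each of the 667 had the same sign within all 3 replicate numbers, where 41.5% of all tested genes did. The 24 h and DMSO libraries did not overlap for 507 of them, against 18.8% of all tested genes. Both counts follow in part from choosing the genes by the same values, so they describe the calls and do not check them. The calls rest on the block: without it 0 were called by edgeR, although 1717 had an unadjusted p under 0.05, and with the 6 compared libraries alone it called 1. The count was 433 without 24 h replicate 1, 23 without 24 h replicate 2, 294 without 24 h replicate 3, 315 without DMSO replicate 1 and 25 without DMSO replicate 2. Without the number 3 libraries it was 1863 of 15192 genes, 973 higher and 890 lower, and 641 of the 667 were among them with the same sign. List counts without number 3 are to be read beside these larger numbers. Scaling by library size alone raised the median of all genes by 0.062 and gave 595 genes higher and 176 lower.

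**Figure D1:**
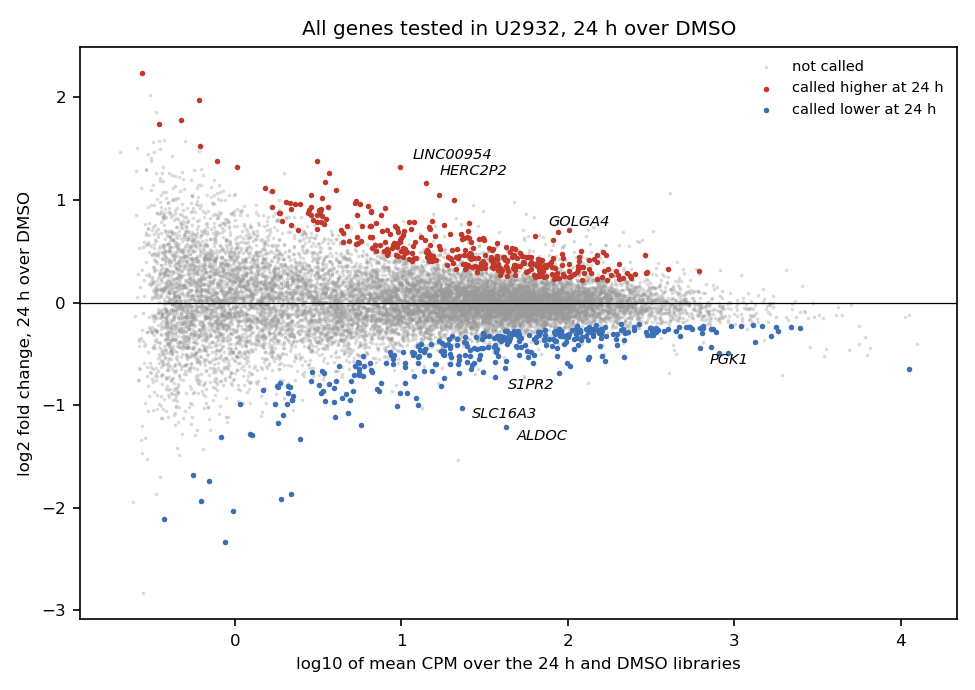
Log2 fold change at 24 h over DMSO (vertical axis) against the log10 mean CPM of the 6 libraries (horizontal axis) for the 15138 tested genes, with the 338 called higher in red, the 329 called lower in blue and the others in grey. Most called genes lie within 1 log2 unit of 0, and ALDOC and SLC16A3 are among the lowest called genes above 10 CPM.

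Genes of glycolysis were lower at 24 h, and among the called members ALDOC and the lactate exporter SLC16A3 had the lowest log2 fold changes. Glycolysis breaks glucose down to pyruvate and lactate, and many of its genes are also targets of the hypoxia-inducible factors, transcription factors that bind the short core ACGTG or GCGTG in DNA. Of 23 tested members of the glycolysis list, 7 fell and 0 rose, beside 2.17% of all tested genes that fell. The list's median log2 fold change was -0.24, against 0.00 for all genes, and 21 of 23 members lay below 0. Within replicate numbers 1, 2 and 3 the median was -0.28, -0.35 and -0.07. A fit on numbers 1 and 2 alone called 18 of the 23 lower, beside 890 of 15192 genes.

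ALDOC (ENSG00000109107.14, chromosome 17, 28573115 to 28576948), the aldolase isoform best known from brain, had 24.6, 21.9 and 30.2 CPM at 24 h, against 50.7, 51.7 and 77.1 CPM in DMSO. All 3 treated libraries were below all 3 DMSO libraries, and the log2 difference was -1.22 ± 0.08 (SE, edgeR adjusted p = 2.48e-05), the smallest adjusted p of the comparison. SLC16A3 (ENSG00000141526.17, chromosome 17, 82228397 to 82261129), the lactate and proton carrier MCT4, had 14.8, 13.1 and 18.6 CPM at 24 h, against 32.3, 31.8 and 28.8 CPM in DMSO. The groups did not overlap, and the log2 fold change was -1.02 ± 0.18 (adjusted p = 0.0254). PFKFB3, which makes the activator of phosphofructokinase, had 74.9, 68.4 and 94.5 CPM at 24 h, against 116, 111 and 128 CPM in DMSO. PGK1, phosphoglycerate kinase, had 539, 520 and 515 CPM at 24 h, against 730, 768 and 640 CPM in DMSO. Their log2 fold changes were -0.59 ± 0.07 and -0.44 ± 0.06 (adjusted p = 0.0026 and 0.00311), again with no overlap. The glucose transporters SLC2A3 and SLC2A1 fell with -0.55 ± 0.12 and -0.28 ± 0.06, and ENO1, enolase, with -0.24 ± 0.06 (adjusted p from 0.0234 to 0.0422). PFKFB4, a relative of PFKFB3 named after its values were seen, had 10.7, 8.78 and 14.4 CPM at 24 h, against 40.02, 38.03 and 19.5 CPM in DMSO. Its log2 fold change of -1.54 ± 0.43 was the lowest of the list and missed the threshold (adjusted p = 0.139).

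**Figure D2:**
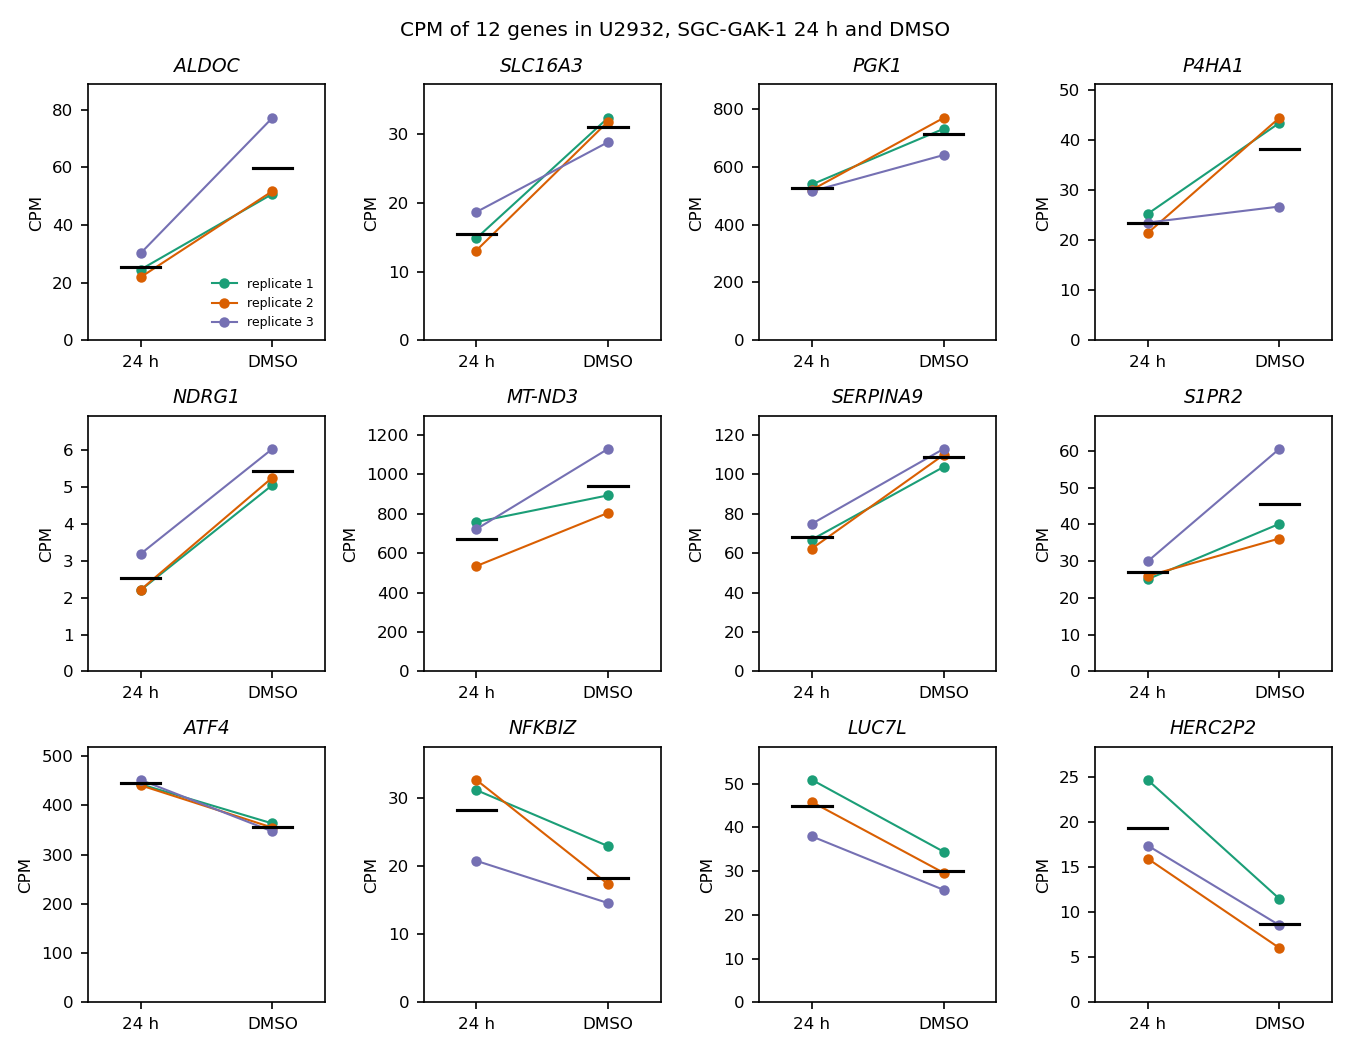
CPM of 12 genes in U2932, with SGC-GAK-1 24 h on the left and DMSO on the right of each panel, 1 coloured line per replicate number and black bars at the group means (n = 3). ALDOC, SLC16A3, PGK1, P4HA1, NDRG1, MT-ND3, SERPINA9 and S1PR2 lie lower at 24 h in each replicate number, and ATF4, NFKBIZ, LUC7L and HERC2P2 lie higher.

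Genes outside glycolysis that respond to hypoxia were lower as well. Of 20 tested members, 6 fell and 0 rose, beside 2.17% and 2.23% of all tested genes, and 20 of 20 lay below 0. The list median was -0.33 on the log2 scale, and -0.29, -0.33 and -0.20 in replicates 1, 2 and 3. NDRG1, a stress-induced gene, had 2.21, 2.22 and 3.19 CPM at 24 h, against 5.06, 5.26 and 6.04 CPM in DMSO, a log2 fold change of -1.12 ± 0.18 (adjusted p = 0.01). P4HA1, a subunit of the enzyme that hydroxylates collagen, had 25.3, 21.4 and 23.5 CPM at 24 h, against 43.4, 44.4 and 26.7 CPM in DMSO. Its difference was small in number 3, and its log2 fold change was -0.68 ± 0.13 (adjusted p = 0.0214). BNIP3L, a receptor for removal of mitochondria, fell with -0.46 ± 0.09, FAM162A, a mitochondrial protein, with -0.42 ± 0.07, DDIT4, an inhibitor of mTORC1 signalling, with -0.33 ± 0.08, and KDM3A, a histone demethylase, with -0.31 ± 0.08 (adjusted p from 0.0104 to 0.044). With numbers 1 and 2 alone, 12 of the 20 were called lower, beside 890 of 15192 genes. MIR210HG, the host transcript of the hypoxia-induced microRNA miR-210, was also among the named falls, with 2.96, 1.93 and 3.06 CPM at 24 h, against 6.71, 5.71 and 3.28 CPM in DMSO (-0.97 ± 0.24, adjusted p = 0.0425).

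Promoters of 4 of these genes are shown so that the presence or absence of the hypoxia core can be read directly. Each stretch lies within the 250 bases before the gene's RefSeq start (GRCh38.p14) and leaves out bases that a GENCODE 29 exon of the gene covers. Capitals mark ACGTG or GCGTG on the gene's strand, or CACGT or CACGC where the core is on the other strand. All 4 read 5′ to 3′ on the plus strand, which is the gene's strand, at chrX:78103998-78104173 for PGK1, chr3:122383932-122384175 for FAM162A, chr10:72273674-72273919 for DDIT4 and chr17:82228185-82228396 for SLC16A3.
PGK1: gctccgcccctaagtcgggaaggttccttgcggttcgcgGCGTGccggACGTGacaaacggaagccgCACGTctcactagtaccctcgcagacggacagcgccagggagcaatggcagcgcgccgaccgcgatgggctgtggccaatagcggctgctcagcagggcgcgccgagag
FAM162A: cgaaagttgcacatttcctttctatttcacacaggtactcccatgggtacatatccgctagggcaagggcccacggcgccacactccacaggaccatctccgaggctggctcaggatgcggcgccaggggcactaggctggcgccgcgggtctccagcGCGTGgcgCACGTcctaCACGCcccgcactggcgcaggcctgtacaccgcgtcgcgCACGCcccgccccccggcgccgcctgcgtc
DDIT4: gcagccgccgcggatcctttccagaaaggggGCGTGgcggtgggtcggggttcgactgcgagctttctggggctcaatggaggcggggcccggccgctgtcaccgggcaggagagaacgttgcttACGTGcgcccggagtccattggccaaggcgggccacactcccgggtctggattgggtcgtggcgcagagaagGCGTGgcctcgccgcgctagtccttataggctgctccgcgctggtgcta
SLC16A3: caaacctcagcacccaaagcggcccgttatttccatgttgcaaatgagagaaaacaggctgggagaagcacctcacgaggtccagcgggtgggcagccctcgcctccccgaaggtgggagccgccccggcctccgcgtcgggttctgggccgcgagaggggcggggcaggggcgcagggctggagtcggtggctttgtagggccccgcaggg
PGK1 holds 3 matches, FAM162A 4, DDIT4 3 and SLC16A3 0 in these stretches, and none of the 4 holds the related E-box CACGTG. Over the whole 250 bases, 8 of 10 called genes of the glycolysis and hypoxia lists held a match, 10 of the 13 called genes being in the sequence table. Of 26 list members that were tested and not called, 15 did (57.7%), as did 57.5% of 10362 promoters of tested genes and 43.1% of all 27305 promoters. The motif was chosen after the falls were seen, and a match is a description of letters, not of binding.

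Transcripts of the mitochondrial genome lay below 0 as a group. All 13 mitochondrially encoded mRNAs had a negative log2 fold change, with a median of -0.46, and -0.19, -0.59 and -0.59 within replicates 1, 2 and 3. One passed the test: MT-ND3, a subunit of complex I, with 758, 535 and 722 CPM at 24 h, against 894, 805 and 1129.5 CPM in DMSO (-0.49 ± 0.08, adjusted p = 0.0143). The others had adjusted p-values from 0.059 to 0.373, 11 of 13 were lower at an unadjusted p under 0.05, and DESeq2 called 10. MT-RNR2, the large mitochondrial ribosomal RNA, was named after its values were seen, with a log2 fold change of -0.65 ± 0.10 (adjusted p = 0.016) that missed the threshold without the number 3 libraries (0.26). Mitochondrial genes took 6.15%, 4.18% and 6.68% of the counts in 24 h replicates 1, 2 and 3, against 7.04%, 5.98% and 9.86% in DMSO replicates 1, 2 and 3. Each treated library was below the DMSO library of its number, while the ranges of the groups overlapped. Of 76 nuclear-encoded genes of oxidative phosphorylation, edgeR called 0, with 4 higher and 3 lower at an unadjusted p under 0.05, and DESeq2 and limma voom 0. Their median was 0.01. Of 13 genes of coenzyme Q synthesis, 0 were called by any of the 3 tools, with 1 higher and 1 lower at an unadjusted p under 0.05.

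Cytosolic ribosomal proteins shifted slightly and broadly. Of 79 tested, 16 fell and 0 rose, beside 2.17% and 2.23% of all tested genes, and 73 lay below 0. The median was -0.15, or -0.09, -0.12 and -0.22 within replicates 1, 2 and 3. RPL31 had 337, 308 and 231 CPM at 24 h, against 412, 356 and 315 CPM in DMSO. RPL39 had 302, 279 and 268 CPM at 24 h, against 359, 326 and 368 CPM in DMSO, with no overlap. Their log2 fold changes were -0.32 ± 0.06 and -0.31 ± 0.06 (adjusted p = 0.018 and 0.0174). RPL38, RPS18 and RPS21 fell with -0.27, -0.24 and -0.25. Ribosomal protein genes have many processed copies, between which reads can be split, and with scaling by library size alone 2 of the 79 were called lower and the median was -0.09. In numbers 1 and 2 alone 30 were called lower and 0 higher, beside 890 and 973 of 15192 genes. Of 51 genes of ribosome biogenesis, GNL3 and LYAR, nucleolar proteins, rose with 0.22 ± 0.06 and 0.28 ± 0.07 (adjusted p = 0.0449 and 0.0422). Of 74 mitochondrial ribosomal proteins, MRPS25 alone was called (0.31 ± 0.07, adjusted p = 0.035).

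Among called genes with at least 5 CPM, those with the largest rises were mostly noncoding or members of multi-copy families. LINC00954, a long noncoding RNA of unknown function (ENSG00000228784.9, chromosome 2, 19868860 to 19885047), had 13.2, 14.8 and 13.7 CPM at 24 h, against 6.78, 5.39 and 4.58 CPM in DMSO (1.32 ± 0.14, adjusted p = 0.00123). HERC2P2, a transcribed pseudogene of the ubiquitin ligase HERC2 (ENSG00000276550.4, chromosome 15, 22495570 to 22590815), had 24.7, 15.96 and 17.4 CPM at 24 h, against 11.5, 6.04 and 8.57 CPM in DMSO (1.16 ± 0.11, adjusted p = 0.000615). The groups did not overlap in either gene. DDX12P and AC009533.1, both unprocessed pseudogenes on chromosome 12, rose with 1.00 ± 0.15 and 1.04 ± 0.13, and WASH7P, a copy of the actin-regulating WASH gene, with 1.09 ± 0.20. Protein-coding genes among the 12 largest rises were CCDC150 (1.26 ± 0.28), TUBG2, a gamma-tubulin (0.99 ± 0.17), AGAP4 (0.97 ± 0.20), ZNF66 (0.96 ± 0.15) and GOLGA8B, of a golgin family with many copies (0.92 ± 0.17). All had adjusted p-values of 0.0375 or less. Among the genes with the smallest p, GOLGA4, a golgin of the trans-Golgi network, had 74.6, 73.0 and 85.5 CPM at 24 h, against 53.4, 44.8 and 50.8 CPM in DMSO (0.65 ± 0.08, adjusted p = 0.0026). ANKRD12, a nuclear cofactor, rose with 0.71 ± 0.07 (adjusted p = 0.00123) and MUC20-OT1, a noncoding transcript, with 0.77 ± 0.10 (adjusted p = 0.0026).

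Members of some multi-copy families were also called, and they are named because of their rises, so they say nothing of the families as groups. HERC2P9 rose with 0.85 ± 0.14, SMG1P3 with 0.70 ± 0.14 and NPIPB3 with 0.88 ± 0.16. How reads that match several copies were counted is not given in the sources used here, so each member's own value is uncertain.

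Pseudogenes made up 12.1% of the genes called higher, 1.82% of those called lower and 4.93% of all genes tested. In numbers, 41 of 746 tested pseudogenes rose and 6 fell. Long noncoding RNAs held 9.47% of the higher genes, 3.65% of the lower ones and 13.4% of those tested. Protein-coding genes called higher had a median of 16 merged exons and 6.74 kb of exonic sequence, those called lower 8 exons and 5.10 kb, and all tested ones 11 exons and 5.14 kb (GENCODE 29). Chromosome 16 held 42 higher and 6 lower genes of 739 tested, beside 2.23% higher and 2.17% lower of all tested genes. Pseudogenes took 0.456%, 0.438% and 0.442% of the counts in 24 h replicates 1, 2 and 3, against 0.430%, 0.405% and 0.429% in DMSO. The deposited table gives 1 count per gene, so spliced and unspliced reads cannot be told apart in it.

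**Figure D3:**
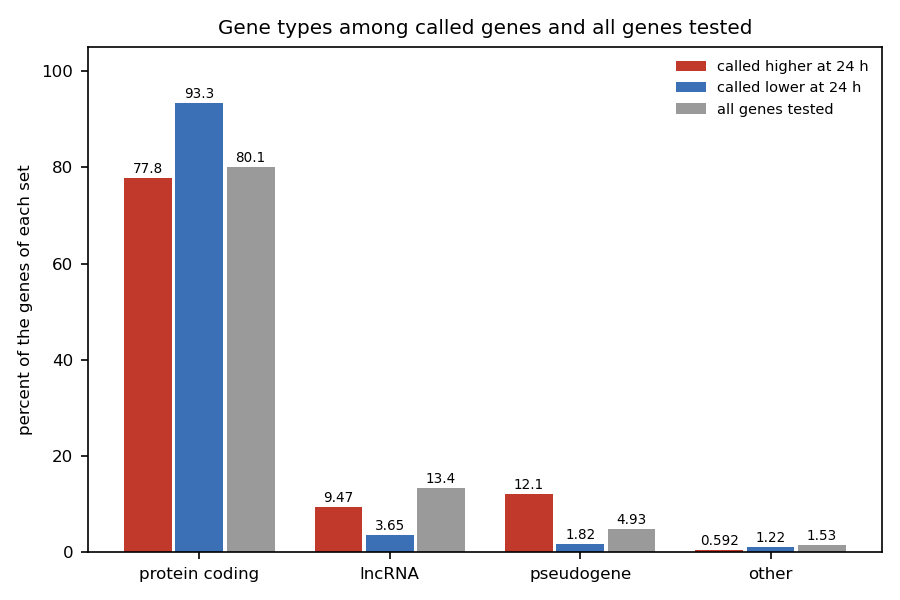
Percent of genes by type (bars, from 0) among the 338 called higher at 24 h (red), the 329 called lower (blue) and the 15138 tested (grey). Pseudogenes hold 12.1% of the higher genes and 1.82% of the lower genes, against 4.93% of all tested.

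In the list of the spliceosome and hnRNP proteins 3 of 46 rose and 2 fell, beside 2.23% and 2.17% of all tested genes, with a median of 0.05. Numbers 1 and 2 alone gave 9 higher and 8 lower, beside 973 and 890 of 15192 genes, with a list median of -0.03. CLK2 and CLK4, kinases that phosphorylate SR splicing factors, rose with 0.41 ± 0.08 and 0.49 ± 0.12 and SRSF2, an SR protein, with 0.30 ± 0.07 (adjusted p = 0.0187, 0.0382 and 0.0361). HNRNPM, an RNA-binding protein, fell with -0.25 ± 0.07 (adjusted p = 0.0478). Outside the list, 4 splicing-related genes were named after their values were seen, for their rises. LUC7L had 50.8, 45.8 and 37.9 CPM at 24 h, against 34.4, 29.6 and 25.7 CPM in DMSO (0.58 ± 0.07, adjusted p = 0.00305). PNISR, RBM6 and CCNL2 rose with 0.45, 0.44 and 0.53. NEAT1, the noncoding RNA of paraspeckles, also named after its values were seen, had 43.3, 39.1 and 42.1 CPM at 24 h, against 35.6, 20.02 and 33.0 CPM in DMSO (0.52 ± 0.11, adjusted p = 0.0296).

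Genes of the germinal centre, plasma cell and lymphocyte trafficking lists had calls in 1 direction, downward, beside 2.17% of all tested genes called lower. Most members of each list were not called. Of 17 germinal centre genes 4 fell, with a median of -0.18 and medians of -0.18, -0.21 and -0.12 in replicates 1, 2 and 3. SERPINA9, a protease inhibitor that marks germinal centre B cells (ENSG00000170054.16, chromosome 14, 94462717 to 94479689), had 66.9, 62.3 and 74.9 CPM at 24 h, against 104, 110 and 113 CPM in DMSO (-0.68 ± 0.09, adjusted p = 0.00484). S1PR2, the receptor that confines B cells to germinal centres (ENSG00000267534.4, chromosome 19, 10221433 to 10231331), had 25.1, 26.0 and 29.96 CPM at 24 h, against 40.2, 36.2 and 60.6 CPM in DMSO (-0.73 ± 0.10, adjusted p = 0.00415). Neither overlapped between groups. GCSAM and ASB13, the other called members, fell with -0.51 ± 0.08 and -0.29 ± 0.07. The germinal centre markers BCL6, MME, LMO2 and MYBL1 missed the threshold, with -0.09, -0.15, -0.21 and 0.12 (edgeR adjusted p from 0.324 to 0.666).

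Of 18 plasma cell genes 6 fell and 6 lay above 0, with a median of -0.18, and of -0.07, -0.06 and -0.30 in replicates 1, 2 and 3. Without the number 3 libraries the median was -0.0047, with 6 genes called lower and 1 higher. JCHAIN, the joining chain of IgA and IgM, had 794, 689 and 781 CPM at 24 h, against 907, 956 and 1364 CPM in DMSO (-0.49 ± 0.10, adjusted p = 0.0273). SDC1 (CD138), PRDM1, the plasma cell transcription factor, TNFRSF17 (BCMA), CD27 and CD38 fell with -0.40, -0.35, -0.32, -0.32 and -0.25 (adjusted p from 0.024 to 0.0415). Of 26 trafficking and adhesion genes 5 fell, including S1PR2, but 11 lay above 0 and the median was -0.035. Without the number 3 libraries 7 were called lower and 1 higher. CXCR5, the follicle-homing receptor, had 415, 415 and 426 CPM at 24 h, against 491, 504 and 581 CPM in DMSO (-0.32 ± 0.07, adjusted p = 0.0287). GPR183, the oxysterol receptor EBI2, ITGA6, an integrin, and CXCR4, the other main homing receptor, fell with -0.60, -0.76 and -0.24. B cell identity itself had 3 calls of 34 genes and a median of -0.02: PIK3CD, the lymphocyte PI3-kinase, rose with 0.40 ± 0.06, while CD79A, a chain of the B cell receptor, and FCRLA fell with -0.25 ± 0.06 and -0.31 ± 0.05. Of 19 activated B cell type genes 0 were called by edgeR, DESeq2 or limma voom, with 2 higher and 4 lower at an unadjusted p under 0.05. In DMSO the number 3 library lay above numbers 1 and 2 in the plasma cell list by a median of 0.23 and in the germinal centre list by 0.15. Of the germinal centre genes, 8 were called lower and 0 higher when the number 3 libraries were left out. The part of the number 3 difference in these falls was not tested.

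NF-kappaB genes lay slightly above 0. Of 37 tested, 4 rose and 0 fell, beside 2.23% and 2.17% of all tested genes. The median was 0.16, and it was 0.13, 0.21 and 0.14 in replicates 1, 2 and 3. NFKBIZ, an atypical IkB protein and a target of the pathway, had 31.1, 32.6 and 20.8 CPM at 24 h, against 22.9, 17.3 and 14.6 CPM in DMSO (0.62 ± 0.10, adjusted p = 0.0101). CCL22, a chemokine, CFLAR, an inhibitor of caspase-8, and TRAF2, an adaptor of death receptors, rose with 0.45 ± 0.11, 0.29 ± 0.06 and 0.25 ± 0.07. Numbers 1 and 2 alone gave 17 calls higher and 2 lower, beside 973 and 890 of 15192 genes. Targets of ATF4, which drives the integrated stress response, did not move together, with 3 of 35 higher, 2 lower and a median of 0.01. ATF4 itself had 443, 441 and 452 CPM at 24 h, against 363, 355 and 347 CPM in DMSO (0.33 ± 0.06, adjusted p = 0.013), with no overlap. MARS1, methionyl-tRNA synthetase, and CBS, of cysteine synthesis, rose with 0.23 and 0.47. ATF3, a stress-induced factor, fell with -0.43 ± 0.10, and so did DDIT4.

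Immediate early genes, which serum and receptor signals switch on, had 3 falls and 0 rises among 34. Of all tested genes 2.17% fell and 2.23% rose. In the list 30 of 34 lay below 0. FOSB and JUND, parts of the AP-1 factor, fell with -0.88 ± 0.18 and -0.42 ± 0.09 (adjusted p = 0.0227 and 0.024), and ATF3 was the third. The median of the list was -0.23, and -0.12, -0.08 and -0.46 in replicates 1, 2 and 3. When number 3 was left out, 8 were called lower and 0 higher. Of 36 lysosome and autophagy genes 3 fell, among them CTSB, the protease cathepsin B, and LAMP2, a lysosomal membrane protein, with -0.38 ± 0.07 and -0.27 ± 0.06. TSC22D3 (GILZ), a glucocorticoid-induced gene, had 6.87, 6.89 and 11.02 CPM at 24 h, against 11.4, 12.2 and 25.1 CPM in DMSO (-0.93 ± 0.11, adjusted p = 0.0026). NRN1, ELFN2, RIMKLA, CD180, MYADML2, GPR146 and MT2A completed the 12 largest falls of genes with at least 5 CPM, with log2 fold changes from -1.19 to -0.89. CD180 is a Toll-like receptor homologue of B cells and MT2A a metallothionein. ABLIM1, an actin-binding protein, and C4orf3 were among the smallest p-values, with -0.53 ± 0.07 and -0.62 ± 0.07.

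Genes of G2 and mitosis gave no call, and their values came from 1 replicate number. Of 70 tested, edgeR, DESeq2 and limma voom each called 0, with 1 higher and 0 lower at an unadjusted p under 0.05. The median log2 fold change was 0.47 and 69 of 70 lay above 0, but within replicates 1, 2 and 3 the median was -0.01, -0.03 and 1.51. CCNB1 (cyclin B1) had 210, 210 and 286 CPM at 24 h, against 197, 208 and 101 CPM in DMSO (0.56 ± 0.36, adjusted p = 0.457). The low value is that of DMSO replicate 3, where the list lay 1.13 log2 units below DMSO replicates 1 and 2 (median difference -1.13). Without the number 3 libraries the median was -0.02, with 4 genes called higher and 6 lower.

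S phase genes had 1 rise and 4 falls among 49, beside 2.23% and 2.17% of all tested genes. Without the number 3 libraries 1 was called higher and 12 lower, beside 973 and 890 of 15192 genes in that fit. ORC6, of the origin recognition complex, rose with 0.39 ± 0.08, and MCM2 and MCM5, of the replicative helicase, PRIM2, a primase subunit, and RPA2 fell with -0.23, -0.28, -0.28 and -0.26 (adjusted p from 0.0395 to 0.0478). MCM2 had 485, 469 and 464 CPM at 24 h, against 541, 558 and 570 CPM in DMSO, with no overlap. Among 35 centrosome genes TUBGCP6, of the gamma-tubulin ring complex, was called, with 40.1, 37.9 and 35.1 CPM at 24 h, against 31.7, 24.1 and 19.5 CPM in DMSO (0.61 ± 0.09, adjusted p = 0.00783). In the list of DNA damage checkpoints and repair 2 of 37 genes were called (5.41%), beside 4.41% of all tested genes. They were FANCA, of the Fanconi complex, and XRCC3, of recombination, which rose with 0.43 ± 0.06 and 0.44 ± 0.08. The list median was 0.12, but -0.003, 0.005 and 0.35 in replicates 1, 2 and 3. FANCA had 165, 159 and 167 CPM at 24 h, against 130, 107 and 130 CPM in DMSO. Of 32 RB, E2F and G1 regulators 1 was called, CDKN1C, a CDK inhibitor, which fell with -0.86 ± 0.18. Of 17 BCL2 family genes 1 was called, HRK, a BH3-only apoptosis inducer, which fell with -0.81 ± 0.19. Of 26 p53 targets, 13 above and 13 below 0, 1 was called, FDXR, which rose with 0.59 ± 0.15. In replicates 1, 2 and 3 CDKN1C had -0.52, -0.53 and -1.43, HRK -0.39, -0.61 and -1.48 and FDXR 0.42, 0.28 and 1.13. Without the number 3 libraries FDXR missed the threshold (edgeR adjusted p = 0.062), while CDKN1C and HRK passed. Among all tested genes 4.41% were called. RB1, CDKN1A and MYC did not pass, with 0.15, 0.07 and -0.08 (adjusted p = 0.274, 0.778 and 0.639). Lists of cholesterol synthesis (25 genes), the unfolded protein response (28), heat shock (34), MHC class II (16) and replication-dependent histones (36) had 0 calls by edgeR and limma voom. A further 26 of the 62 histone genes were too low to be tested. The 36 tested ones summed to 202, 196 and 194 CPM in 24 h replicates 1, 2 and 3, so these libraries, made for polyadenylated mRNA, say little about histone genes. At an unadjusted p under 0.05 the cholesterol list had 0 genes, the unfolded protein list 2 higher and 6 lower, the heat shock list 4 higher and 3 lower, the MHC class II list 1 lower and the histones 6 lower, and DESeq2 called 1 histone gene and 0 of the other lists. Without the number 3 libraries edgeR called 10 cholesterol genes higher and 0 lower, where the list median was 0.19, 0.09 and -0.24 in replicates 1, 2 and 3. It then called 6 heat shock genes higher and 0 lower, 2 higher and 2 lower in the unfolded protein list, 1 higher and 1 lower in MHC class II, and 2 histones lower.

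**Figure D4:**
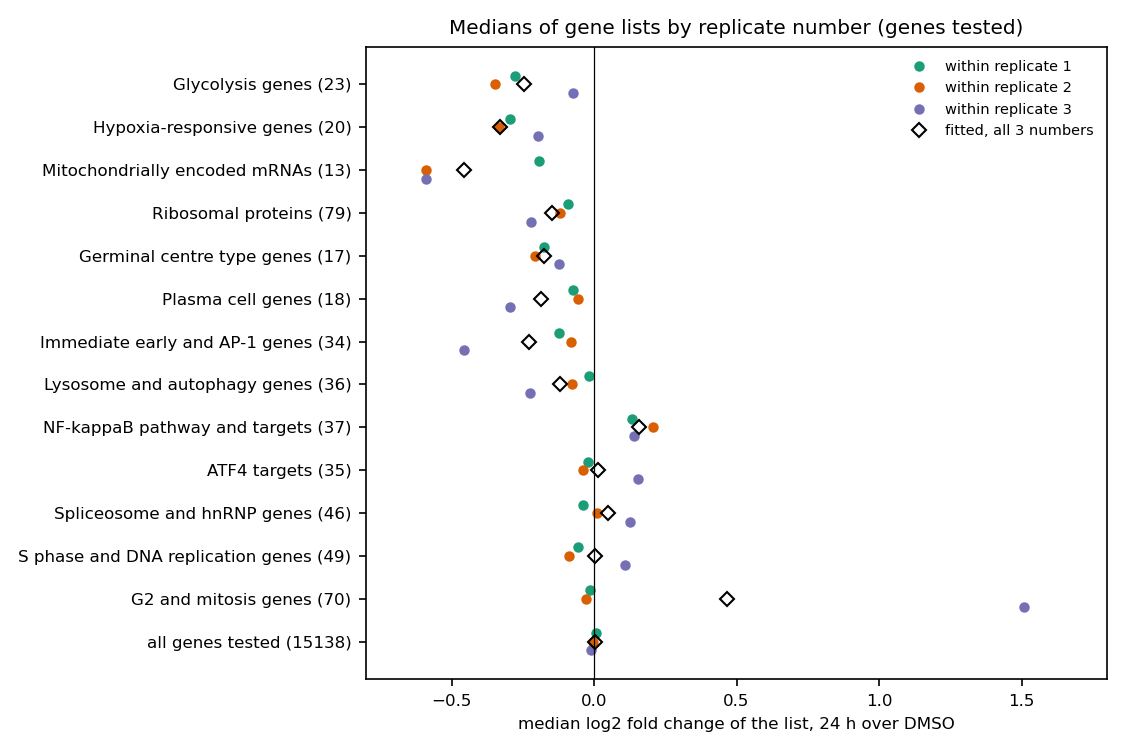
Median log2 fold change at 24 h over DMSO of 13 gene lists and of all tested genes (horizontal axis), fitted over the 3 replicate numbers (diamonds) and within each number (coloured points), with the number of genes tested in brackets. Glycolysis and hypoxia lists lie below 0 in all 3 numbers, while G2 and mitosis genes stand at 1.51 in number 3 and near 0 in numbers 1 and 2.

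Some of the falls were present at 12 h and others came later. The 12 h values share their DMSO libraries with the 24 h values, so both are set side by side, in the order DMSO, 12 h and 24 h. In the same fit 9 genes were called at 12 h (0.0595%), all lower, with DESeq2 calling 43. ALDOC had means of 59.9, 29.8 and 25.6 CPM in DMSO, at 12 h and at 24 h, and its log2 fold change at 12 h was -0.99 ± 0.08 (adjusted p = 0.000264). NRN1, a neuritin, and MOB3A were the other named genes called at 12 h, with -1.28 ± 0.19 and -0.47 ± 0.07 (adjusted p = 0.0338 and 0.0323). P4HA1 had -0.75 ± 0.13 at 12 h and -0.68 ± 0.13 at 24 h, where the first missed the threshold (adjusted p = 0.0903). The median of the hypoxia list was -0.37 at 12 h and -0.33 at 24 h.

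Between 12 h and 24 h the direct test called 151 genes (0.997%), 115 higher (0.76%) and 36 lower (0.238%) at 24 h, and DESeq2 265. S1PR2 had 25.1, 26.0 and 29.96 CPM at 24 h, against 31.5, 34.9 and 49.6 CPM at 12 h (-0.49 ± 0.10, adjusted p = 0.0365), and SERPINA9 fell likewise with -0.48 ± 0.09 (adjusted p = 0.0351). CTSB had 56.1, 52.0 and 59.0 CPM at 24 h, against 76.0, 70.1 and 90.0 CPM at 12 h (-0.49 ± 0.07, adjusted p = 0.0109). MT2A fell with -1.22 ± 0.20 between the times (adjusted p = 0.0183), and its 12 h log2 fold change over DMSO was 0.33 ± 0.19 (adjusted p = 0.713). HERC2P2 had 24.7, 15.96 and 17.4 CPM at 24 h, against 11.3, 7.51 and 8.79 CPM at 12 h (1.07 ± 0.11, adjusted p = 0.00326). GOLGA4, TUBGCP6, FANCA and PIK3CD rose between the times with 0.53, 0.60, 0.52 and 0.34 (adjusted p from 0.00818 to 0.0258). Over the 338 genes called higher at 24 h the median log2 fold change at 12 h was 0.10, and over the 329 called lower it was -0.17. Since these genes were chosen by their 24 h values from the same DMSO libraries, the medians are a description.

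**Figure D5:**
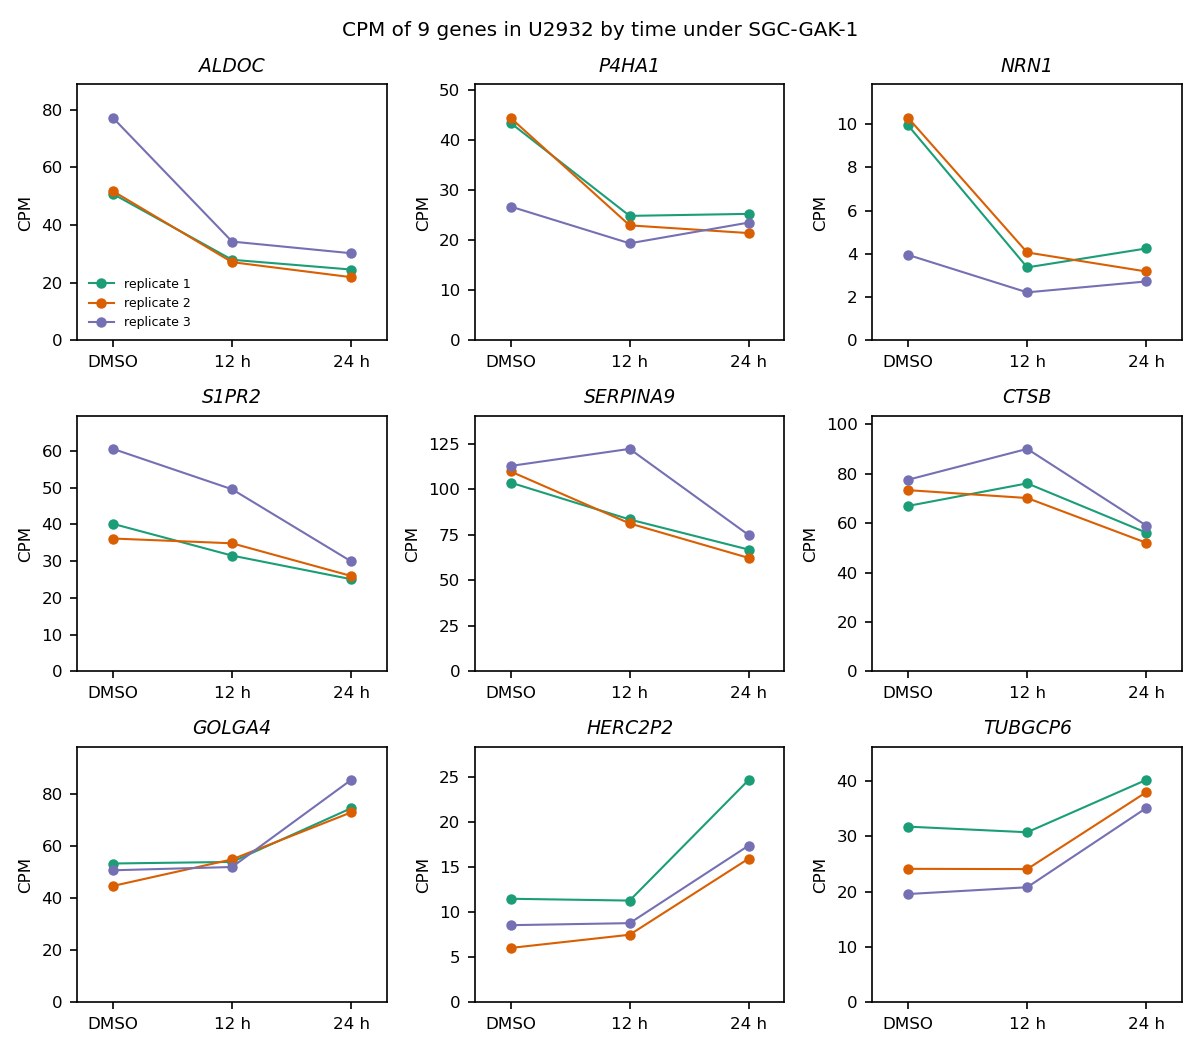
CPM of 9 genes (vertical axes) in DMSO, at 12 h and at 24 h of SGC-GAK-1 (horizontal axes), with 1 line per replicate number. ALDOC, P4HA1 and NRN1 were already low at 12 h, whereas S1PR2, SERPINA9 and CTSB fell and GOLGA4, HERC2P2 and TUBGCP6 rose between 12 h and 24 h.

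The difference in response between U2932 and Ly1 at 24 h was tested on all 18 libraries, with 45 of 16191 genes called (0.278%), 23 higher (0.142%) and 22 lower (0.136%) in U2932. S1PR2 had log2 fold changes of -0.73 ± 0.10 in U2932 and 0.35 ± 0.10 in Ly1, a difference of -1.10 ± 0.14 (adjusted p = 0.00522). FBP1, of gluconeogenesis, CD52, a surface glycoprotein, and APOL3 also fell in U2932, with differences of -1.17, -1.23 and -0.95 (adjusted p from 0.00522 to 0.0332). MT-ND3 had -0.49 ± 0.08 in U2932 and 0.74 ± 0.16 in Ly1, a difference of -1.25 ± 0.23 (adjusted p = 0.0415), and 5 of the 13 mitochondrial mRNAs were called in this test. Their list median was -0.46 in U2932 and 0.68 in Ly1. LINC00954, GOLGA2P10, CCDC18-AS1 and IQSEC1 rose in U2932 and differed from Ly1 by 2.11, 1.23, 1.22 and 1.20 (adjusted p from 0.0199 to 0.0241). NIBAN1 fell in both lines, by more in Ly1, with -0.36 ± 0.07 in U2932 and -2.04 ± 0.31 in Ly1 (adjusted p = 0.0446 for the difference). For ALDOC the difference missed the threshold, with -1.22 in U2932 and -1.95 in Ly1 (adjusted p = 0.536). The medians of the glycolysis and hypoxia lists were -0.24 and -0.33 in U2932 and -0.39 and -0.47 in Ly1. Without the block, edgeR gave 0 calls for the line difference and 1348 genes at an unadjusted p under 0.05. DESeq2 with the block called 249, and without the number 3 libraries of both lines edgeR called 4626.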

How the data were processed

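RNA was sequenced from 18 libraries made with a kit for polyadenylated mRNA (NuGEN Universal Plus), per the labels' protocols, and the authors deposited 1 table of raw read counts per gene for all of them. The submitters' processing notes name cutadapt, STAR, Picard and the build hg38. The counting tool, its use of strand and its handling of reads that match several genes were not given in the labels or notes used here, so overlapping, antisense and multi-copy genes are uncertain. Gene names, types and positions were those of the deposited table, and exons came from GENCODE 29.

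Counts were tested with edgeR 4.0.16 (quasi-likelihood test, limma 3.58.1, R 4.3.3). Genes passed edgeR's own filter on low counts, libraries were scaled by TMM, and p-values were adjusted by Benjamini-Hochberg over all tested genes, with a threshold of 0.05. The fit held the 9 U2932 libraries, with group and replicate number as terms and 4 residual degrees of freedom. The difference between lines was fitted on 18 libraries with a block for each number of each line. Deviations from the group means correlated between 24 h and DMSO libraries of the same number with r = 0.361, 0.336 and 0.563 across genes. Correlations between libraries of different numbers were not set beside these. Deviations within a group cancel out, so a number that stood apart in both groups also raises r for the others. The values therefore cannot show that each number pairs its samples, and the block remains an assumption. Differences within a replicate number used log2 CPM with a prior count of 2, and CPM are not per length, so levels of different genes are not compared. Totals were 23236970 to 26316407 counts in U2932 and 22549853 to 29386802 in Ly1.

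On data simulated for the 24 h comparison over 14918 genes, 56% of 100 genes changed by 0.5 log2 and 85% of 100 changed by 1 were recovered, with 14 false calls. The simulation gave each replicate number the same effect in every group, so it does not test the block. In the real data the G2 and mitosis genes did not follow that setting. Named genes are the 12 largest called rises and falls with at least 5 CPM and 1 sign in all numbers, the 6 smallest p-values each way, up to 6 called and 4 highest members of each list, fixed genes of the GAK pathway and up to 5 genes each way that differed between lines. The comparison and the gene lists were chosen with earlier results of these data known. Some genes that this rule names are not reported here. Alternatives were the fit without the block or on 6 libraries, other scalings, filters and tools (DESeq2 1.42.0, limma voom), and libraries left out. Tables and figures were made with Python 3.11.15, pandas 2.3.3, numpy 2.4.6 and matplotlib 3.10.9.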

Additional observations from a re-analysis of the deposited data

Results flagged for a closer look

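The response to SGC-GAK-1 at 24 h differed between U2932 and Ly1 for 13 genes named here, by a test of the difference itself on all 18 libraries (edgeR, adjusted p from 0.00522 to 0.0457). The log2 response was lower in U2932 than in Ly1 for S1PR2 by a difference of -1.10, FBP1 -1.17, CD52 -1.23, MT-ND3 -1.25, APOL3 -0.95, MT-RNR2 -0.95, GPR183 -0.84 and CD38 -0.51. It was higher in U2932 for LINC00954 with 2.11, NIBAN1 with 1.66, GOLGA2P10 with 1.23, CCDC18-AS1 with 1.22 and IQSEC1 with 1.20. GOLGA2P10 and CCDC18-AS1 are a pseudogene and an antisense transcript, whose reads may be shared with other genes.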

How the results depend on the processing

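All comparisons rest on the replicate block. Without it edgeR called 0 genes at 24 h, 0 at 12 h, 0 between 12 h and 24 h and 0 for the line difference, with 1717, 517, 1274 and 1348 at an unadjusted p under 0.05. With only the 6 compared libraries 1 gene was called at 24 h. At 24 h, 433, 23 and 294 genes were called without 24 h replicate 1, 2 or 3, and 315, 25 and 663 without DMSO replicate 1, 2 or 3. Without the number 3 libraries 1863 were called at 24 h, 653 at 12 h, 1503 between the times and 4626 for the line difference, and without the filter on low counts 1609 at 24 h. DESeq2 called 695, 43, 265 and 249. Of 107 called genes named here, 0 changed sign under any of the 15 alternatives. They were chosen by their calls in the same libraries, so this count is a description and not a check. Called again were 81 with scaling by library size alone, 102 with DESeq2, 106 with limma voom, 103 without the number 3 libraries and 16 without 24 h replicate 2 or DMSO replicate 2. Signs turned for 5 genes that had missed the threshold. RIPK2 was at 0.015 with library size alone and 0.031 without the number 3 libraries, and MS4A1 at 0.030 without them. With single libraries left out RIPK2 reached 0.00084 to 0.024, MS4A1 0.025, MYC 0.011, CCNG1 -0.00100 and CDKN1A -0.036, -0.026 and -0.00069. Of 614 list medians under the alternatives, 578 moved by less than the SD of the 3 replicate medians. The cause of these shifts was not tested.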
